A study of Mus musculus with 6 samples.

Results

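The tumour necrosis factor (TNF) superfamily comprises trimeric ligands, most of them anchored in the membrane and some shed from it, and the receptors that bind them. The members were the probe sets whose annotated symbol is Tnf, Lta, Ltb, Ltbr, Fas, Fasl, Cd27, Cd40 or Cd40lg, or begins with Tnfsf or Tnfrsf and a digit. There were 37 of them among 19505 genes, 14 ligands and 23 receptors, each with 1 probe set. Cd27, Tnfsf12 and Tnfsf13 had no named probe set and were not analysed here.

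Receptors of this family fall into those with a death domain, such as Tnfrsf1a and Fas, those that recruit TRAF adaptors, such as Tnfrsf1b and Cd40, and decoys that bind ligand without a full signal, such as Tnfrsf11b. TNF is made mainly by activated macrophages. Through Tnfrsf1a it switches on NF-kB and the inflammatory genes under it, and in the heart it is known as a cytokine that depresses contraction and drives remodelling.

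The 6 arrays covered 2 cell types, cardiac fibroblasts (CF, the matrix-producing cells) and cardiomyocytes (CM, the contractile cells), each cultured for 48 h with the secretome of Ccrl2+ macrophages, the secretome of Ccrl2- macrophages or phosphate-buffered saline (PBS, which the titles call sham). The macrophages came from hearts of 6 wild-type mice, mixed before the sort, at 1 week of pressure overload by transverse aortic constriction (TAC), and all labels give C57BL/6N mice of 15 to 16 weeks. The source labels name the secretome, while the protocols speak of culture together with the macrophages. The description field instead gives heart macrophages as the profiled population, which the source labels and the extraction protocol do not, so the labels conflict on which cells the RNA came from. The source of the heart cells beyond their being primary is not given in the sources used here. With 1 array in each group the spread between samples is unknown, nothing was tested, and the small number of arrays limits how precisely any value is known.

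The values given are probe set summaries on the log2 scale, where 1 unit is 2-fold. The floor was 6.55, the median of all named values. It lay close to background, since negative control probe sets had medians between 6.2 and 6.71 and the highest of the 23 antigenomic background probe sets between 7.16 and 7.93 on the 6 arrays. A gene was compared when at least 1 of its 2 values was past the floor, values below the floor were raised to it, and a difference against a raised value is a lower bound. The fibroblast markers were past the floor on all 3 CF arrays for 7 of 7 genes and the cardiomyocyte markers on all 3 CM arrays for 8 of 8 genes, although 7 of 8 cardiomyocyte markers were also past it on each CF array. Fibroblast markers were past it in CM too, for 7, 7 and 6 of 7 genes with Ccrl2+, Ccrl2- and PBS. In CM 3 of them were at least 2-fold higher with Ccrl2- than with PBS, beside 0.617% of all genes past the floor. With Ccrl2+ over Ccrl2- 2 of them were at least 2-fold lower there, beside 0.09%. In whole cultures, fewer cells of a type and less RNA per cell cannot be told apart.

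Of the 14 ligands 9 lay under the floor on all 6 arrays, and 0 were past it on every array. Those under it were Cd40lg, Fasl, Ltb, Tnfsf4, Tnfsf8, Tnfsf10, Tnfsf11, Tnfsf13b and Tnfsf14. Of the 23 receptors 10 were past the floor on all 6 arrays, 4 on some and 9 on none. The 9 were Tnfrsf8, Tnfrsf9, Tnfrsf13b, Tnfrsf13c, Tnfrsf14, Tnfrsf17, Tnfrsf18, Tnfrsf19 and Tnfrsf21, several of which are known from lymphocytes. The 18 members under the floor throughout had values between 3.24 and 6.47. Members past the floor were mostly receptors, which also made up 23 of the 37 members. In CF 12, 12 and 13 receptors were past the floor with Ccrl2+ secretome, Ccrl2- secretome and PBS, and 11, 10 and 11 in the matching CM arrays. Of the 14 ligands 0, 4 and 1 were past it in CF and 0, 0 and 2 in CM. Between 49.7% and 50.4% of all genes were past the floor on each array, so the receptor counts lay near that share.

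**Figure D1:**
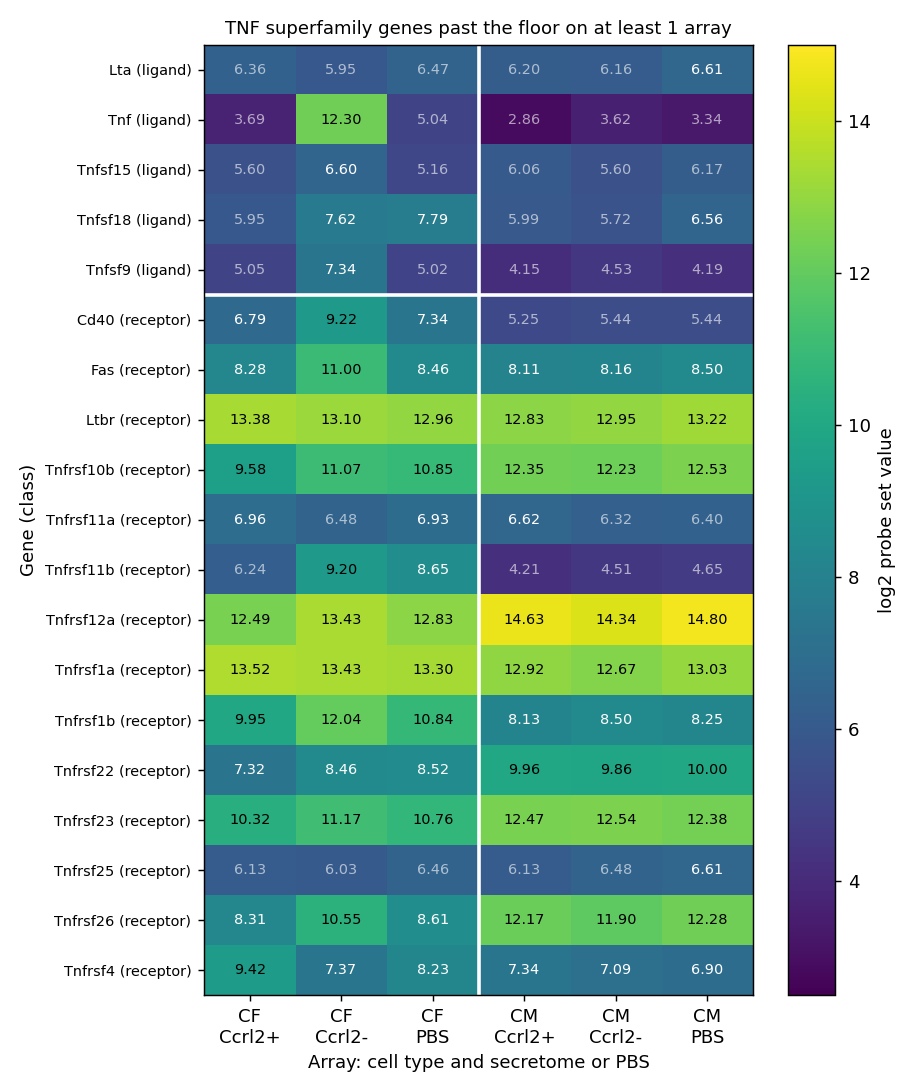
log2 probe set values (colour and printed number) of the 19 TNF superfamily genes past the floor of 6.55 on at least 1 array, ligands above receptors, on 3 fibroblast (CF) and 3 cardiomyocyte (CM) arrays; faint numbers lie under the floor. Tnf stands at 12.30 on the CF array with Ccrl2- secretome and under the floor on the other 5 arrays.

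Among the ligands, the fibroblast culture with Ccrl2- secretome stood apart through Tnf itself. Tnf was at 3.69 in CF with Ccrl2+ secretome, 12.30 with Ccrl2- secretome and 5.04 with PBS. In CM the values were 2.86, 3.62 and 3.34 with Ccrl2+, Ccrl2- and PBS. Tnf was therefore past the floor on 1 of 6 arrays, and it was at least 53.8-fold higher in CF with Ccrl2- secretome than with PBS (at least 5.75 on the log2 scale), rank 27 from the top among 10057 genes compared. The same bound, 5.75, held against the Ccrl2+ secretome, where Tnf had rank 32 from the bottom of 10144 genes.

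Tnfsf9, the ligand 4-1BBL that costimulates T cells, was at 5.05 in CF with Ccrl2+, 7.34 with Ccrl2- and 5.02 with PBS, and between 4.15 and 4.53 in CM. It was past the floor on the CF array with Ccrl2- secretome alone. Its difference from PBS was 2.32 as deposited and at least 0.79 against the floor, a bound short of 2-fold. Tnfsf15, a ligand of the death receptor Tnfrsf25, was at 5.60, 6.60 and 5.16 in CF in the same order, and 6.60 only just passed the floor.

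Tnfsf18, the ligand of the costimulatory receptor GITR, had a different pattern. It was at 5.95 in CF with Ccrl2+, 7.62 with Ccrl2- and 7.79 with PBS, against 5.99, 5.72 and 6.56 in CM. The Ccrl2+ array was the low fibroblast array, at least 1.24 below PBS and at least 1.07 below the Ccrl2- secretome. Lta, which encodes lymphotoxin alpha, reached 6.61 in CM with PBS and was under the floor on the other 5 arrays.

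A promoter window, from 250 bases before to 50 after a gene start, was in the RefSeq table of build GRCm38.p6 for 29 of the 37 members. The windows shown are those of the members at least 2-fold higher in CF with Ccrl2- secretome than with PBS that had a window (Tnf, Fas and Tnfrsf1b), that of Tnfrsf4, which was higher with the Ccrl2+ secretome, and that of Ltb, the neighbour of Tnf that stayed under the floor. Capitals mark matches on either strand to the NF-kB consensus of 10 letters and to TATAAA. The windows are chr17:35201958-35202257 for Tnf (minus strand), chr19:34290409-34290708 for Fas (plus strand), chr4:145246821-145247120 for Tnfrsf1b (minus strand), chr4:156013445-156013744 for Tnfrsf4 (plus strand) and chr17:35194257-35194556 for Ltb (plus strand).
Tnf: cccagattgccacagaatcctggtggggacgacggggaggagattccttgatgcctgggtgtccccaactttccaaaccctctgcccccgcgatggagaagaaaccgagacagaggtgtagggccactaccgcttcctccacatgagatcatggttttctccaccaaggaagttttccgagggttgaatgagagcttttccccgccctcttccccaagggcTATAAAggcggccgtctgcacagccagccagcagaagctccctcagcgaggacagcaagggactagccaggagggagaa
Fas: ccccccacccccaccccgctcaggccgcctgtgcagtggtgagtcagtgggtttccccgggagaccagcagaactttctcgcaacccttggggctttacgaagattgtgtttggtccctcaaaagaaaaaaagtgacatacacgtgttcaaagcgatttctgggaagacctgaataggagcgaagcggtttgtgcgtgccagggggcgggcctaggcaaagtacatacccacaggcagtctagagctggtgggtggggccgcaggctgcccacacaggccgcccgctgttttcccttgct
Tnfrsf1b: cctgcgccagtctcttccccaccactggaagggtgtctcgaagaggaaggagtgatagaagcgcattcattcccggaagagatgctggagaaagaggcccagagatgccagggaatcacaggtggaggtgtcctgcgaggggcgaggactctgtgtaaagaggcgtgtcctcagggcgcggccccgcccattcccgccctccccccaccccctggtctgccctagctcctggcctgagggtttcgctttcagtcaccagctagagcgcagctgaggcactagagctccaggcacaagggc
Tnfrsf4: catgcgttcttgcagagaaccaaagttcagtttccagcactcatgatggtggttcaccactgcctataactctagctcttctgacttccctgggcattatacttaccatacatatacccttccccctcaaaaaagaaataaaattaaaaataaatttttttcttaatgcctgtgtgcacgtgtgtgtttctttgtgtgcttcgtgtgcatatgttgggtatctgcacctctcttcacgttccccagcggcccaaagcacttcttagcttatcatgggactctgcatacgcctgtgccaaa
Ltb: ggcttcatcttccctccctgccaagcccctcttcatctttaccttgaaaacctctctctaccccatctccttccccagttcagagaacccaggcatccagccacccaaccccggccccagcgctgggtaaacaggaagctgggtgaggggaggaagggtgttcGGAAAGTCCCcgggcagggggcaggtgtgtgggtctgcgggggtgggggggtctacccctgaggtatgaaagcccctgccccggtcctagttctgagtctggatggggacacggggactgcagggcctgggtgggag
In Tnf the TATAAA began 29 bases before the start. The NF-kB consensus was in the Ltb window, 87 bases before the start, and not in the other windows shown, where sites beyond these bases were not searched. It was in the windows of 4 of the 29 members (Ltb, Tnfrsf8, Tnfrsf9 and Tnfrsf25), and all but Tnfrsf25 were under the floor on every array. TATAAA was in windows of 6 of the 29 members. A member with several windows was counted once, if any of them matched. Of all 32851 promoter windows, each counted singly, 8.46% held the NF-kB consensus and 13.6% held TATAAA. The shares of members and of windows thus differ in unit. A match describes the letters and is not a binding site.

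In fibroblasts with Ccrl2- secretome, 5 of the 37 members were at least 2-fold higher than with PBS and 0 were lower. These were Tnf, Fas, Cd40, Tnfrsf1b and Tnfrsf26. Over all genes past the floor the shares were 5.57% higher and 4.36% lower. Of the members 17 were past the floor in this comparison. As deposited, the median difference was 0.22 over all 37 members and -0.04 over all 19505 genes.

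Fas, the death receptor for Fas ligand, was at 8.28 in CF with Ccrl2+, 11.00 with Ccrl2- and 8.46 with PBS. Its CM values were 8.11, 8.16 and 8.50. The Ccrl2- fibroblast array was the high one, 2.54 above PBS, a 5.82-fold difference, and the other 5 arrays lay within 8.11 to 8.50. Fasl stayed under the floor on every array.

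Cd40, the receptor by which antigen-presenting cells take T-cell help, was at 6.79, 9.22 and 7.34 in CF with Ccrl2+, Ccrl2- and PBS, and at 5.25, 5.44 and 5.44 in CM. It was past the floor in the fibroblast cultures and under it in the cardiomyocyte cultures. The Ccrl2- secretome array was 1.88 above PBS. Its ligand gene Cd40lg was under the floor throughout.

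TNF itself has a pair of receptors. Tnfrsf1a, the death-domain receptor TNFR1, was at 13.52, 13.43 and 13.30 in CF and 12.92, 12.67 and 13.03 in CM with Ccrl2+, Ccrl2- and PBS, with 0 differences of 2-fold in the 7 comparisons. Tnfrsf1b, the TRAF-binding receptor TNFR2, was at 9.95, 12.04 and 10.84 in CF and at 8.13, 8.50 and 8.25 in CM. For Tnfrsf1b the Ccrl2- array was 1.20 above PBS in CF, while the Ccrl2+ array lay 0.89 below PBS. Ltbr, the lymphotoxin beta receptor, had values of 12.83 to 13.38 on the 6 arrays and 0 differences of 2-fold. Tnfrsf11a, the RANKL receptor, and Tnfrsf25 hovered about the floor, at 6.32 to 6.96 and 6.03 to 6.61, also with 0 differences of 2-fold.

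Tnfrsf26, a receptor gene of a mouse cluster that also holds the TRAIL decoy receptors Tnfrsf22 and Tnfrsf23, was at 8.31, 10.55 and 8.61 in CF with Ccrl2+, Ccrl2- and PBS, 1.94 higher with Ccrl2- than with PBS. Its neighbours differed from PBS by less than 2-fold there. Tnfrsf22 was at 7.32, 8.46 and 8.52, and Tnfrsf23 at 10.32, 11.17 and 10.76. These neighbours are known to be close in sequence, so their probes may bind each other's transcripts and their separate values are uncertain.

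In fibroblasts with Ccrl2+ secretome, 1 member was at least 2-fold higher than with PBS and 4 were lower, where 4.3% of all genes past the floor were higher and 5.35% lower. Tnf, Fas, Cd40 and Tnfrsf26 were not among them. Of the members 14 were past the floor. As deposited, the median over all 37 members was -0.11, against -0.01 over all genes.

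The higher member was Tnfrsf4, which encodes the T-cell costimulatory receptor OX40. It was at 9.42 in CF with Ccrl2+, 7.37 with Ccrl2- and 8.23 with PBS, and at 7.34, 7.09 and 6.90 in CM. The Ccrl2+ array was 1.19 above PBS and the Ccrl2- array 0.86 below it. Its ligand gene Tnfsf4 was under the floor on all 6 arrays.

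The lower members were Tnfrsf11b, Tnfrsf10b, Tnfsf18 and Tnfrsf22. Tnfrsf11b, which encodes osteoprotegerin, a secreted decoy for RANKL, was at 6.24, 9.20 and 8.65 in CF with Ccrl2+, Ccrl2- and PBS, and at 4.21, 4.51 and 4.65 in CM. It was at least 2.10 lower with Ccrl2+ than with PBS, rank 69 from the bottom among 10042 genes. With Ccrl2+ it was under the floor, and with the other treatments of fibroblasts past it. Tnfrsf10b, the mouse TRAIL death receptor, was at 9.58, 11.07 and 10.85, so that the Ccrl2+ array lay 1.27 below PBS. Tnfrsf22 lay 1.20 below PBS.

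**Figure D2:**
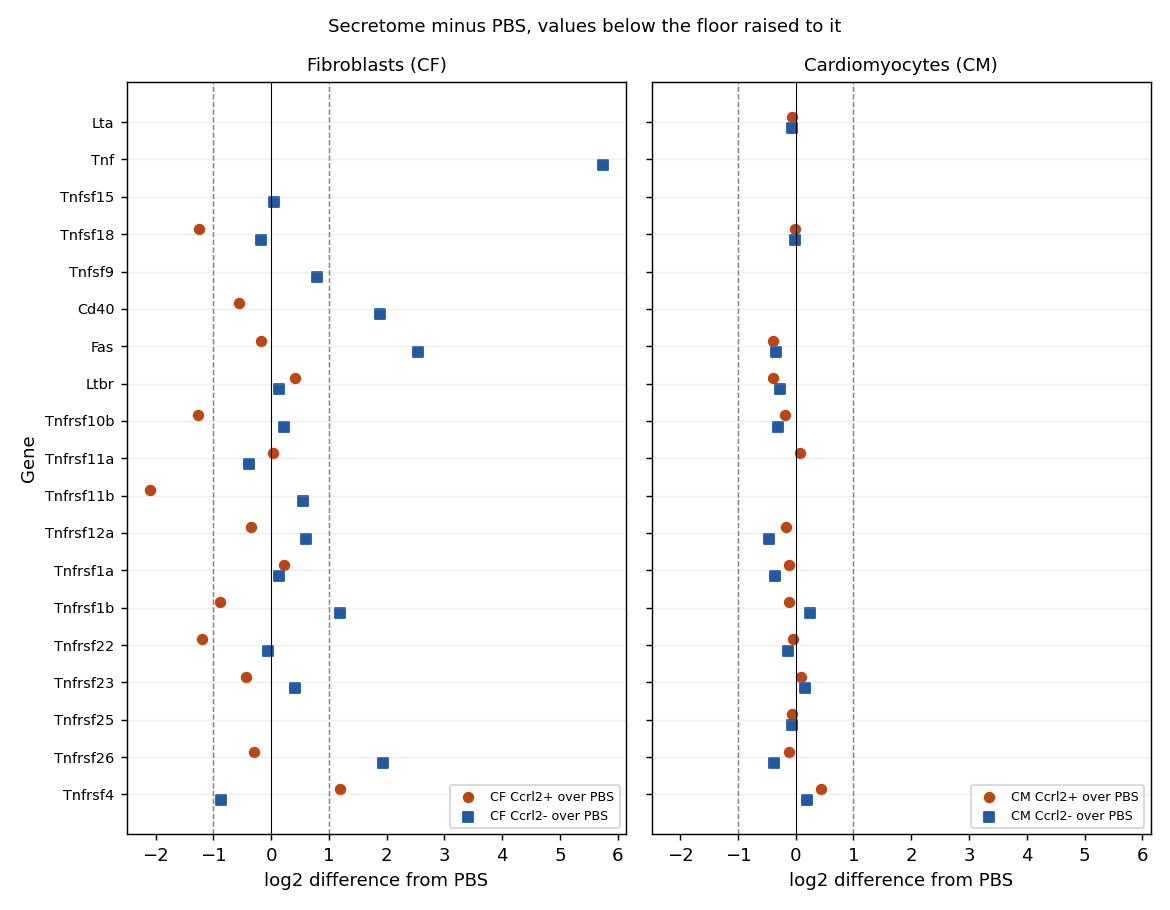
log2 difference of each secretome from PBS for the 19 TNF superfamily genes past the floor on some array, in fibroblasts (left) and cardiomyocytes (right), with circles for Ccrl2+ and squares for Ccrl2-; dashed lines mark 2-fold, and a gene under the floor on both arrays has no point. Tnf at 5.75 is the point farthest right in CF, and all CM points lie between -0.46 and 0.44.

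Set against each other, the fibroblast arrays differed in 10 of 37 members. With Ccrl2+ secretome 1 member, Tnfrsf4, was at least 2-fold higher than with Ccrl2- secretome (2.05), and 9 were lower, where 7.71% of all genes past the floor were higher and 9.13% lower. The lower members were Tnf (at least 5.75), Fas (2.72), Tnfrsf11b (at least 2.65), Cd40 (2.43), Tnfrsf26 (2.24), Tnfrsf1b (2.09), Tnfrsf10b (1.49), Tnfrsf22 (1.14) and Tnfsf18 (at least 1.07). This comparison and those with PBS share arrays, so their values are not independent. Of the members 17 were past the floor.

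Negative control probe sets also reached 2-fold, namely 13% of those past the floor between CF with Ccrl2+ and PBS, 9.12% between Ccrl2- and PBS and 13% between the secretomes. The 95th percentile of the controls on the 3 CF arrays lay between 10.67 and 10.74. Of the 10 members at 2-fold between any CF arrays, Tnf (12.30), Tnfrsf1b (12.04), Tnfrsf10b (11.07) and Fas (11.00) were above it on the Ccrl2- array, whereas Cd40, Tnfrsf26, Tnfrsf4, Tnfrsf11b, Tnfrsf22 and Tnfsf18 were below it at their highest CF value.

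Cardiomyocytes gave no such differences. In CM, 0 of 37 members reached 2-fold with Ccrl2+ secretome over PBS, with Ccrl2- secretome over PBS, or between the secretomes. Few genes did so at all, with 0.15% of genes past the floor higher and 0.55% lower for Ccrl2+ over PBS, 0.617% and 0.587% for Ccrl2- over PBS, and 0.07% and 0.09% for Ccrl2+ over Ccrl2-. The counts of 0 members are therefore near the background. The differences of members past the floor ran between -0.39 (Fas) and 0.44 (Tnfrsf4) for Ccrl2+ over PBS. Of negative controls past the floor 7.84%, 10.5% and 9.31% reached 2-fold in the 3 comparisons. For Ccrl2- over PBS the members ran between -0.46 (Tnfrsf12a) and 0.25 (Tnfrsf1b).

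**Figure D3:**
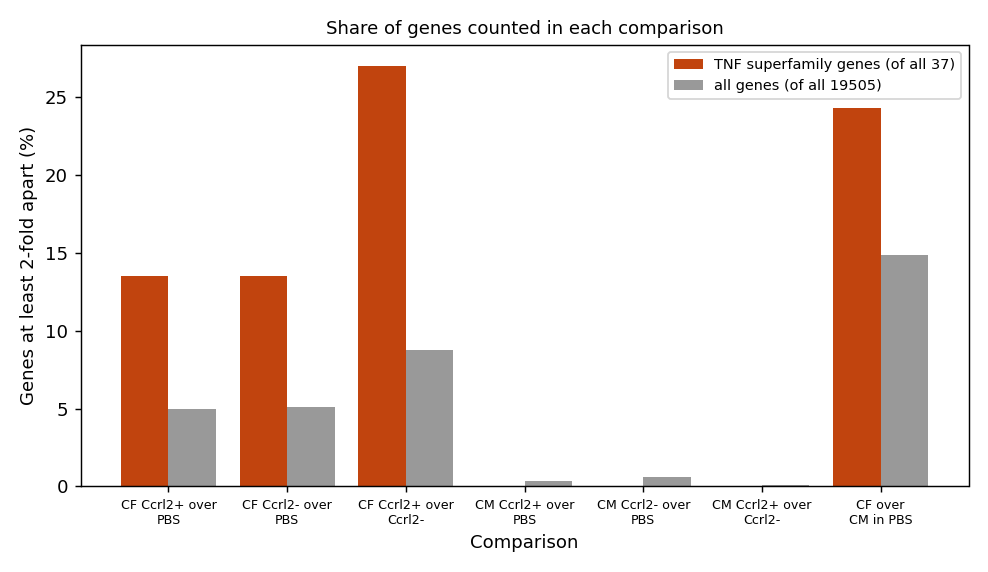
Share of genes at least 2-fold apart in either direction in each of the 7 comparisons, for the 37 TNF superfamily genes and for all 19505 genes, each as a percentage of all measured genes including those under the floor. The member bars stand for 5, 5 and 10 genes in the fibroblast comparisons, 0 in the 3 cardiomyocyte comparisons and 9 for CF over CM in PBS.

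Some members also differed between the cell types themselves, and all of these but Tnfsf18 were receptors. In PBS, 4 members were at least 2-fold higher in CF than in CM and 5 were lower, of 16 members past the floor, where 12.6% of all genes past the floor were higher and 15.2% lower. Higher in CF were Tnfrsf1b (10.84 in CF against 8.25 in CM), Tnfrsf11b (8.65 against 4.65, at least 2.10), Tnfrsf4 (8.23 against 6.90) and Tnfsf18 (7.79 against 6.56). Lower in CF were Tnfrsf26 (8.61 against 12.28), Tnfrsf12a (12.83 against 14.80), Tnfrsf10b (10.85 against 12.53), Tnfrsf23 (10.76 against 12.38) and Tnfrsf22 (8.52 against 10.00). A 2-fold difference was also seen in 21.4% of the negative controls past the floor, 526 of them higher and 94 lower in CF. The 95th percentile of the controls with PBS was 10.74 in CF and 10.20 in CM. Tnfrsf4, Tnfsf18, Tnfrsf11b and Tnfrsf22 were below it at their higher value, and the other members named here were above it. Tnfsf18 at 6.56 in CM only just passed the floor.

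Some markers of other cells differed between the cell types as well. The endothelial list had 7, 5 and 7 of 8 genes past the floor in CF with Ccrl2+, Ccrl2- and PBS (log2 of the summed level 12.60, 11.90 and 12.58), against 8 of 8 on each CM array (17.39, 17.30 and 17.31). In PBS 7 of the 8 were at least 2-fold lower in CF, beside 15.2% of all genes past the floor. The exception was Tek, at 11.06 in CF and 10.72 in CM. Of 5 smooth muscle and pericyte markers past the floor 1 was higher in CF (Cnn1) and 1 lower (Cspg4), beside 12.6% and 15.2%. The part of endothelial transcripts in the receptor values was not tested.

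Tnfrsf12a encodes Fn14, the receptor of the cytokine TWEAK, which is raised in injured muscle. It was at 12.49, 13.43 and 12.83 in CF and 14.63, 14.34 and 14.80 in CM with Ccrl2+, Ccrl2- and PBS. Every CM value lay above every CF value, by less than 2-fold at the nearest pair.

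Over all treatments, 19 members were past the floor on at least 1 array. Of these, 4 had all 3 CF arrays at least 2-fold below all 3 CM arrays, and 1 had them above. Among all genes past the floor on any array, 7.84% and 4.09% did. The 4 were the TRAIL receptors Tnfrsf10b, Tnfrsf22 and Tnfrsf23 together with Tnfrsf26, and the 1 above was Tnfrsf1b. Tnfrsf10b was at 12.35, 12.23 and 12.53 in CM with Ccrl2+, Ccrl2- and PBS. Tnfrsf22 was at 9.96, 9.86 and 10.00, Tnfrsf23 at 12.47, 12.54 and 12.38, and Tnfrsf26 at 12.17, 11.90 and 12.28. The 3 arrays of a cell type had different treatments and are not replicates, and this way of counting was chosen after the values were seen. The gene of their ligand TRAIL, Tnfsf10, was under the floor on all 6 arrays, with values up to 6.47.

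In the order of genes on assembly GRCm38.p6, 15 of the 37 members stood directly beside another member among protein-coding genes, in 9 adjacent pairs. On chromosome 17 Tnf lies between Ltb and Lta, and with Ccrl2- secretome in CF, where Tnf was at 12.30, Ltb was at 4.35 and Lta at 5.95, under the floor. On chromosome 7 Tnfrsf26, Tnfrsf22 and Tnfrsf23 follow each other, and all 3 were lower in CF than in CM. On chromosome 4 Tnfrsf4 stands beside Tnfrsf18 and Tnfrsf1b beside Tnfrsf8, and both neighbours were under the floor on all arrays. On chromosome 1 Tnfsf18 lies between Tnfsf4 and Fasl, which were under it as well.

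A ligand and its receptor were past the floor on the same array in 4 of 23 textbook pairs. Tnf met Tnfrsf1a and Tnfrsf1b on the CF array with Ccrl2- secretome, and Lta, barely past the floor at 6.61, met the same receptors on the CM array with PBS. For the other pairs the ligand, the receptor or both were under the floor on each array. Tnfsf9 at 7.34 in CF with Ccrl2- secretome, for example, stood with its receptor gene Tnfrsf9 at 5.91.

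Downstream of the receptors, 32 genes of receptor-proximal signalling were listed, of which 29 were measured. In CF with Ccrl2- secretome 6 of 28 past the floor reached 2-fold above PBS and 0 below it, beside 5.57% and 4.36% of all genes past the floor, with a median of 0.28 against -0.08 over those genes. Tnfaip3, the ubiquitin-editing inhibitor A20, was at 8.67, 14.45 and 8.46 in CF with Ccrl2+, Ccrl2- and PBS. Its binding partner Tnip1 was at 9.71, 13.70 and 9.59. Both are themselves NF-kB target genes and inhibitors of the pathway, and on both the Ccrl2- array was the high one.

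The inhibitor of apoptosis genes Birc2 and Birc3, whose products ubiquitinate Ripk1 at the TNF receptor, were higher with either secretome. Birc3 was at 12.71, 15.28 and 11.19 in CF with Ccrl2+, Ccrl2- and PBS, and Birc2 at 10.54, 11.01 and 8.35. They were the 2 of 27 genes of the list past the floor that reached 2-fold with Ccrl2+ over PBS (1.52 and 2.19), and 0 were lower, beside 4.3% and 5.35% of all genes past the floor, with a median of 0.08 against -0.06 over those genes. Tifa (2.72) and Tank (1.27), which bind TRAF proteins, completed the 6 for Ccrl2- over PBS. Between the secretomes in CF 5 of 28 were at least 2-fold lower with Ccrl2+ than with Ccrl2-, namely Tnfaip3, Tnip1, Birc3, Tifa and Tank. On that list 0 were higher, beside 9.13% lower and 7.71% higher of all genes past the floor. In CM 0 genes of the list reached 2-fold with either secretome over PBS. Casp8 and Cflar, the protease of the death receptor complex and its inhibitor, were within 13.87 to 14.31 and 12.14 to 12.52 on all 6 arrays.

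Of 8 genes of ligand shedding, Adam17, the protease that releases TNF from the membrane, was at 12.27, 13.65 and 11.78 in CF with Ccrl2+, Ccrl2- and PBS. Timp3, the inhibitor of that protease, was at 15.18, 14.32 and 15.68. With Ccrl2- secretome Adam17 was thus 1.87 higher than with PBS and Timp3 1.36 lower, and these were the 1 higher and 1 lower gene of the 8, beside 5.57% and 4.36% of all genes past the floor. With Ccrl2+ over PBS 0 of the 8 reached 2-fold. Between the secretomes Adam17 (-1.38) and Rhbdf2 (-1.42, against a value raised to the floor) were lower with Ccrl2+ than with Ccrl2-. These were 2 lower and 0 higher of the 8, beside 9.13% and 7.71% of all genes past the floor. Counts this small on a list of 8 are not a result about the list.

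Of 12 genes of death execution 9 were measured, and in CF with Ccrl2- secretome 2 of 8 past the floor reached 2-fold above PBS, beside 5.57% of all genes past the floor. These were Mlkl, the pore-forming protein of necroptosis, at 11.07, 13.50 and 10.70 with Ccrl2+, Ccrl2- and PBS, and Bid, which links death receptors to mitochondria, at 6.17, 7.99 and 5.81. With Ccrl2+ over PBS 0 of 7 reached 2-fold. Between the secretomes 3 of 8, Mlkl, Bid and Ripk3, were at least 2-fold lower with Ccrl2+ than with Ccrl2- and 0 were higher. The shares of all genes past the floor were 9.13% and 7.71%. The median of the list was -0.01 with Ccrl2+ over PBS and 0.32 with Ccrl2- over PBS, against -0.06 and -0.08 over all genes past the floor.

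Of 8 Tnfaip genes, named for induction by TNF or for likeness to Tnfaip8, 4 of 6 past the floor reached 2-fold above PBS in CF with Ccrl2- secretome and 0 did with Ccrl2+ secretome, beside 5.57% and 4.3% of all genes past the floor. The medians of the list were 1.84 and 0.26, against -0.08 and -0.06 over those genes. Besides Tnfaip3 these were Tnfaip2 (10.59, 14.63 and 9.97 with Ccrl2+, Ccrl2- and PBS), Tnfaip6, which encodes the hyaluronan-binding protein TSG-6 (7.88, 10.96 and 8.55), and Tnfaip8 (6.96, 7.89 and 6.63). Between the secretomes 3 of 6, Tnfaip2, Tnfaip3 and Tnfaip6, were at least 2-fold lower with Ccrl2+ than with Ccrl2- and 0 were higher. All genes past the floor had shares of 9.13% and 7.71%. The list shares Tnfaip3 with receptor-proximal signalling. In CM 0 of its 6 genes past the floor differed by 2-fold between any treatments, and Tnfaip2 lay at 13.36, 13.23 and 13.21 there.

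Of 7 further genes, which are superfamily members with other symbols and the adaptor gene Edaradd, 2 were past the floor, and 0 of them reached 2-fold in the CF secretome comparisons. Eda2r, the receptor of an ectodysplasin isoform, was at 12.08, 11.58 and 12.77 in CM with Ccrl2+, Ccrl2- and PBS. Its difference between Ccrl2- and PBS, -1.19, was the only one to reach 2-fold among the 5 pathway lists in the 3 CM comparisons.

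**Figure D4:**
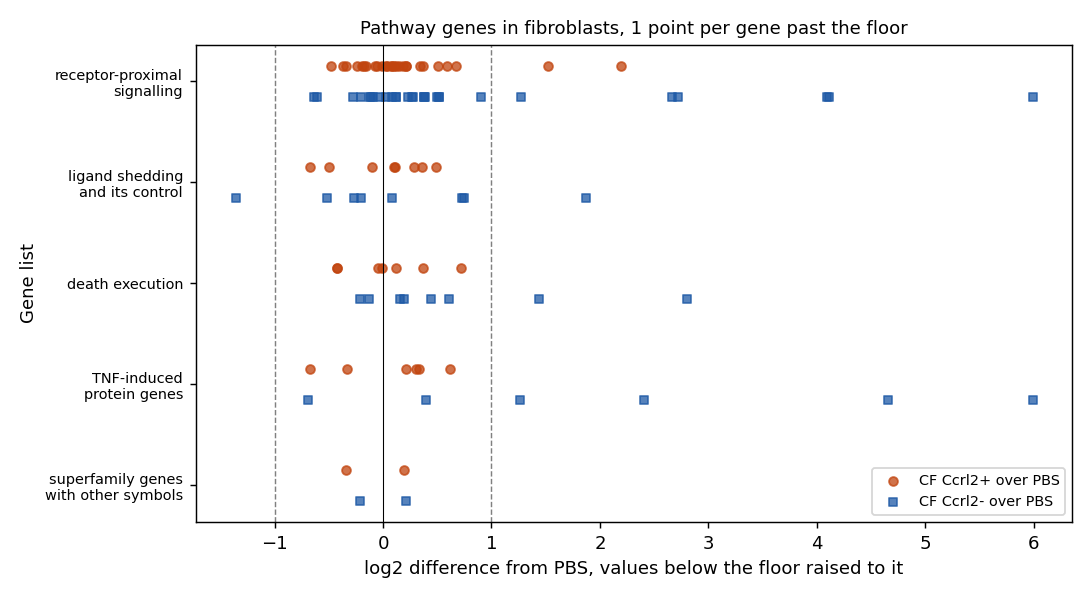
log2 difference from PBS in fibroblasts for the genes of 5 pathway lists past the floor, 1 point per gene, with circles for Ccrl2+ secretome and squares for Ccrl2- secretome; dashed lines mark 2-fold. The square at 5.99, drawn in both lists that hold it, is Tnfaip3, and the circles past 2-fold are Birc3 and Birc2.

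Markers of immune cells, the best known source of TNF ligands, were read on the same arrays. Of 11 macrophage markers measured, 11 were past the floor on each CF array and 9 on each CM array, with PBS as well. The log2 of their summed level was 14.88, 14.61 and 14.26 in CF with Ccrl2+, Ccrl2- and PBS, and 13.61, 13.99 and 14.44 in CM. Within the list the genes moved apart, with Cd14 at 7.28, 11.30 and 8.54 in CF and C1qa at 12.12, 9.42 and 11.22. With Ccrl2- over PBS in CF 4 of 11 reached 2-fold above and 6 below, beside 5.57% and 4.36% of all genes past the floor. The median was -1.10, against -0.08 over those genes. With Ccrl2+ over PBS 2 did above and 2 below, beside 4.3% and 5.35%, the median being 0.17 against -0.06. Between the secretomes 4 did above and 3 below with Ccrl2+ over Ccrl2-, beside 7.71% and 9.13%, and both medians were 0. Of 5 general leukocyte markers 4 were past the floor in CF, where the log2 of the summed level of the list was 12.82, 12.13 and 12.85. With Ccrl2+ over Ccrl2- 2 of the 4, Laptm5 and Tyrobp, reached 2-fold above, beside 7.71% of all genes past the floor. With Ccrl2- over PBS 1 of these markers, Laptm5, did below, beside 4.36%. Among them Ptprc was at 9.18, 9.17 and 9.06 and Laptm5 at 11.98, 10.70 and 12.22, 1.52 lower with Ccrl2- than with PBS. In CM 1 of 4 leukocyte markers past the floor, Laptm5, reached 2-fold below with Ccrl2+ over PBS (-1.16), beside 0.55% of all genes. Markers of B cells, NK cells, neutrophils and dendritic cells were under the floor on all 6 arrays (0 of 4, 0 of 4, 0 of 5 and 0 of 5), and of 5 T-cell markers at most 1, Cd4, reached it. The cardiomyocyte list summed to 18.05, 16.57 and 17.14 in CF with Ccrl2+, Ccrl2- and PBS, and the fibroblast list to 19.28, 19.27 and 19.57. Of the 7 cardiomyocyte markers past the floor in CF, 3 were at least 2-fold higher with Ccrl2+ than with PBS. The share of all genes past the floor was 4.3%. With Ccrl2+ over Ccrl2- 7 of the 7 were at least 2-fold higher, beside 7.71% of all genes past the floor. The part of macrophage or cardiomyocyte transcripts in the values of Tnf and the other members was not tested.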

How the data were processed

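Biotin-labelled RNA of the cultures (from 1 to 8 ug of total RNA, per the labels' protocols) was read on Affymetrix arrays. The authors deposited log2 values per probe set from Affymetrix Expression Console, as the submitters' processing notes name it. Version, summary method, normalization and genome build: not given in the sources used here. The log2 scale was read from the values. If the arrays were scaled to each other before deposit, a shift of most genes together cannot be seen.

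The table held 28846 probe sets, of which 19572 had 1 symbol in the platform annotation. The probe set with the highest mean was kept per symbol, leaving 19505 genes. All 37 members matched a RefSeq gene of assembly GRCm38.p6 by Entrez identifier. In each of 7 comparisons, values under the floor of 6.55 were raised to it, 1 array was subtracted from the other, and genes at 2-fold were counted, without a test. The alternatives changed the threshold (1.5-fold or 3-fold), the floor (absent, or 10.14, the 75th percentile), the raising of low values (left as deposited) or the scaling (quantile normalization). The counting was checked on simulated data, with differences above 2-fold added only to genes well above the floor. The simulated noise was that between the CM secretome arrays. Recovery of differences near 2-fold or near the floor was not checked there.

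The members, the gene lists and the rule for naming genes were chosen with earlier results of these data known. Members at 2-fold in any comparison were named with all 6 values, other members past the floor with values or a range, and from each pathway list up to 6 genes with the largest differences. Casp8, Cflar and the genes set beside Tnf were added for their role. Ligand and receptor pairs were listed from general knowledge. Python 3.11.15, numpy 2.4.6, pandas 2.3.3 and matplotlib 3.10.9 were used.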

Additional observations from a re-analysis of the deposited data

Results flagged for a closer look

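For some members that reached 2-fold in CF, the CM difference in the same comparison had the opposite sign. With 1 array per group these differences between CF and CM were not tested, and all the CM values were well short of 2-fold. For Ccrl2- over PBS, Fas differed by 2.54 in CF and by -0.34 in CM, and Tnfrsf26 by 1.94 in CF and by -0.38 in CM. For Ccrl2+ over Ccrl2-, Tnfrsf26 differed by -2.24 in CF and by 0.27 in CM. In the same comparison Tnfrsf10b differed by -1.49 in CF and by 0.12 in CM, and Tnfrsf22 by -1.14 in CF and by 0.10 in CM.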

How the results depend on the processing

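Leaving values below the floor as deposited or adding quantile normalization moved none of the 14 counts of members by more than 1.5 times. As deposited, Tnfsf9 and Tnfsf15 join the members higher in CF with Ccrl2- secretome than with PBS. Without a floor, that count was 9 in place of 5. At 1.5-fold, 1 member was lower there. At 3-fold, 0 members were higher and 1 lower for CF with Ccrl2+ over PBS, and 2 were higher for CF over CM in PBS. With the floor at the 75th percentile, which leaves fewer members to compare, 0 members were higher and 0 lower for CF with Ccrl2+ over PBS, 2 were higher for Ccrl2- over PBS, 0 were higher and 2 lower for Ccrl2+ over Ccrl2-, and 0 were higher for CF over CM in PBS. In CM the counts stayed 0 between treatments under all 6 alternatives. Among the 29 differences of named members, 0 changed sign; 11 were short of the threshold at 3-fold, and 7 of the 15 that could be computed were short of 2-fold with the higher floor. Each member had 1 probe set, so averaging probe sets had nothing to change. No replicate was left out, as each group had 1 array. No paired analysis was possible because each group had 1 array and the labels carry no replicate numbers.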
